A study of Mus musculus with 6 samples.

Results

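The genes described here are 8 genes of the thick ascending limb of the loop of Henle: *Umod*, *Slc12a1*, *Kcnj1*, *Bsnd*, *Cldn10*, *Cldn14*, *Cldn16* and *Cldn19*. They were taken by gene symbol from a list of salt transporters, paracellular cation claudins and uromodulin, and all 8 were found, with 37 transcript rows among the 54721 rows and 23276 named genes of the table. RNA-Seq compared whole kidneys of 3 mice labelled KspCre; Pkd1 F/RC (single knockout, SKO) with kidneys of 3 mice that carried, in addition, miR17~92 F/F (double knockout, DKO), all at postnatal day 22 by the labels. All 6 mice thus carried Ksp/Cre, a Cre recombinase driven by the cadherin-16 promoter in kidney tubule epithelium, together with 1 floxed *Pkd1* allele and 1 germline hypomorphic (RC) *Pkd1* allele. They differed in floxed miR-17∼92. The mutations made by Cre are limited to tubule cells, whereas the RNA came from every cell of the kidney.

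The thick ascending limb reabsorbs salt without water and so dilutes the tubule fluid and feeds the concentrating gradient of the medulla. Sodium, potassium and chloride enter from the lumen through the cotransporter NKCC2, potassium returns to the lumen through the channel ROMK, and chloride leaves on the blood side through channels that need the subunit barttin. The resulting lumen-positive voltage drives sodium, calcium and magnesium between the cells, through pores built of claudins, the proteins of the tight junction.

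For each transcript the table holds the log2 fold change (DKO against SKO), the mean abundance over the 6 kidneys in CPM (reads of a transcript scaled to a common library size), and the likelihood ratio test of edgeR with p-values adjusted by the Benjamini-Hochberg method over all rows. Values of single kidneys are not in it. The spread between mice, the overlap of the groups and the depth of each library are therefore unknown here, and all values are the authors' group estimates. An approximate standard error (SE) was taken as the size of the log2 fold change over the square root of the likelihood ratio statistic, and it follows the sign ± below. Each gene was represented by its row with the highest mean CPM. The median log2 fold change of the 13001 named genes with at least 1 CPM was -0.05. The host transcript of the deleted cluster, *Mir17hg*, did not follow the labels. Its log2 fold change was 0.92 ± 0.41 (adjusted p = 0.154), and which part of it the floxed allele removes is not given in the sources used here. *Pkd1*, mutated in both groups, had a log2 fold change of -0.66 ± 0.42 (adjusted p = 0.373). *Xist*, the RNA of the inactive X chromosome, had one of 8.71 ± 2.09, or 418-fold, at a mean of 170 CPM (adjusted p = 0.00164). The groups thus appear to differ in their share of female kidneys. Such a difference cannot be told apart from genotype in these values, and the part of sex in the results below was not tested. The groups are named by their labels, and every direction below rests on those labels.

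The 8 genes did not move as a block. *Cldn10* was higher and *Cldn19* lower in kidneys labelled DKO, both past an adjusted p of 0.05, and the other 6 did not pass. *Umod* and *Slc12a1*, the most abundant members, had log2 fold changes of 0.75 and 0.70. *Kcnj1* and *Bsnd* lay nearer to 0, at 0.35 and 0.29. *Cldn16* and *Cldn14* had negative values, -0.75 and -0.44. The median over the 8 genes was 0.32, beside 0 for all named genes. With 1 row per gene, 3.76% of the 23276 named genes passed an adjusted p of 0.05 on the higher side and 3.6% on the lower side, and 1 of the 8 members passed on each side. An F distribution (1 and 4 degrees of freedom, as 6 kidneys leave) was also used as the reference of the statistic. Under it, 0 members and 0 of all rows passed adjustment, and *Cldn10* and *Cldn19* had unadjusted p-values of 0.0115 and 0.0157. It is not the test the authors ran. With no row past adjustment, it cannot tell the members from other genes. Among the named genes of at least 1 CPM, a group that holds 7 of the 8 members, 5.44% passed on the higher side and 5.02% on the lower side. In bulk RNA, fewer cells of a type and less RNA per cell cannot be told apart.

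**Figure D1:**
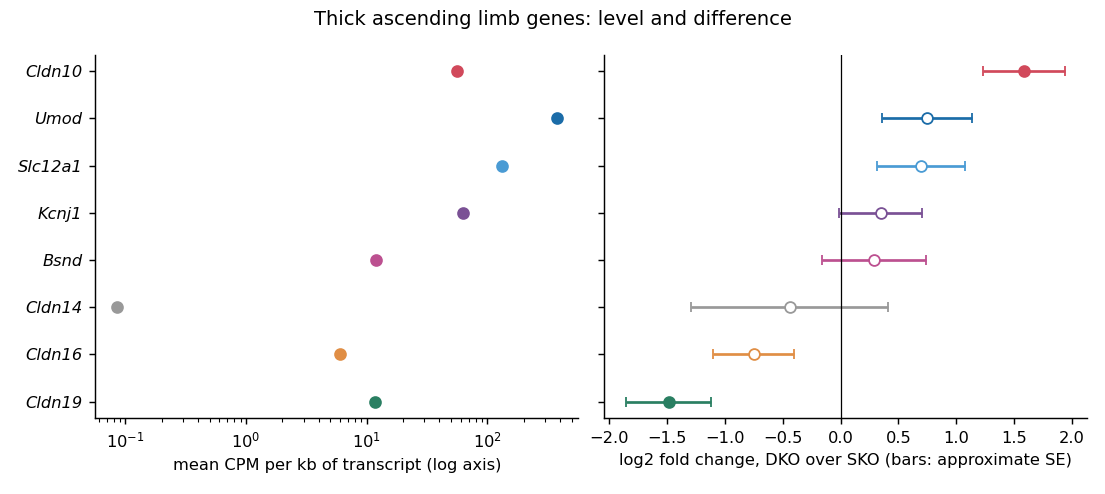
Mean level over the 6 kidneys in CPM per kilobase of transcript (left, log axis) and log2 fold change, DKO against SKO (right) of the 8 genes, ordered by fold change. Bars are approximate SEs, and filled points on the right have an adjusted p under 0.05: *Cldn10* at 1.58 and *Cldn19* at -1.49.

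As a check of the tissue, the levels of the members were compared per kilobase of the matching GENCODE transcript. *Umod* stood highest, with a mean level of 374 CPM per kilobase for its RefSeq row. *Slc12a1* followed at 132, *Kcnj1* at 63.4 and *Cldn10* at 55.7 CPM per kilobase. *Bsnd* and *Cldn19* lay at 11.97 and 11.7, *Cldn16* at 6.06 and *Cldn14* at 0.0851 CPM per kilobase. The defining markers of the segment were thus plainly present in these kidneys, with *Cldn14* close to the floor of the table. Since no spread over kidneys is known, the order within the close pairs *Kcnj1* and *Cldn10*, and *Bsnd* and *Cldn19*, is not resolved.

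*Umod* encodes uromodulin, a glycoprotein that the thick ascending limb releases into the urine, where it is the most abundant protein. Its 6 rows had means of 892 to 1022 CPM. Their log2 fold changes ranged from 0.67 for the RefSeq transcript NM_009470 to 0.80 for an assembled one. None passed adjustment, with adjusted p-values from 0.204 to 0.319 by edgeR's likelihood ratio test. Unadjusted p-values of that test ran from 0.0404 to 0.0878. The row with the highest mean had a log2 fold change of 0.75 ± 0.39 (unadjusted p = 0.0561). That is a 1.68-fold higher level in kidneys labelled DKO, with an approximate 95% interval from 0.987-fold to 2.85-fold. The interval includes no change, so a difference in *Umod* was not established.

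*Slc12a1* encodes NKCC2, the target of loop diuretics. Its 9 rows had means of 338 to 618 CPM and log2 fold changes of 0.58 to 0.70. The row with the highest mean was 1.62-fold higher in kidneys labelled DKO (approximate 95% interval 0.969 to 2.72, unadjusted p = 0.0660, adjusted p = 0.272). The 2 RefSeq rows, NM_183354 and NM_001079690, had log2 fold changes of 0.70 and 0.68 and cannot be told apart. The difference between *Umod* and *Slc12a1* was 0.05 on the log2 scale, far below their combined approximate SE of 0.54.

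*Kcnj1* encodes ROMK, which recycles potassium to the lumen and also serves the distal nephron and collecting duct. Its rows fell into 2 levels. Of the 6 rows, 4 had means of 189.8 to 206.0 CPM and log2 fold changes of 0.30 to 0.41. The 2 assembled rows numbered CUFF.37138 had means of 4.61 and 4.73 CPM and log2 fold changes of 0.87 each (unadjusted p = 0.0131 and 0.0125, adjusted p = 0.100 and 0.0976). Where these minor transcripts lie is not given in the table. The main row was 1.27-fold higher in kidneys labelled DKO (approximate 95% interval 0.778 to 2.08, adjusted p = 0.652).

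*Bsnd* encodes barttin, the subunit that carries chloride channels to the membrane and is made also in more distal segments. It had 1 row, NM_080458, with a mean of 33.0 CPM. Its log2 fold change was 0.29 ± 0.45 (adjusted p = 0.813), with an approximate 95% interval of 0.661-fold to 2.25-fold. For the 3 genes of transcellular salt transport, *Slc12a1*, *Kcnj1* and *Bsnd*, all values were above 0 and none passed the test, with a median log2 fold change of 0.35.

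**Figure D2:**
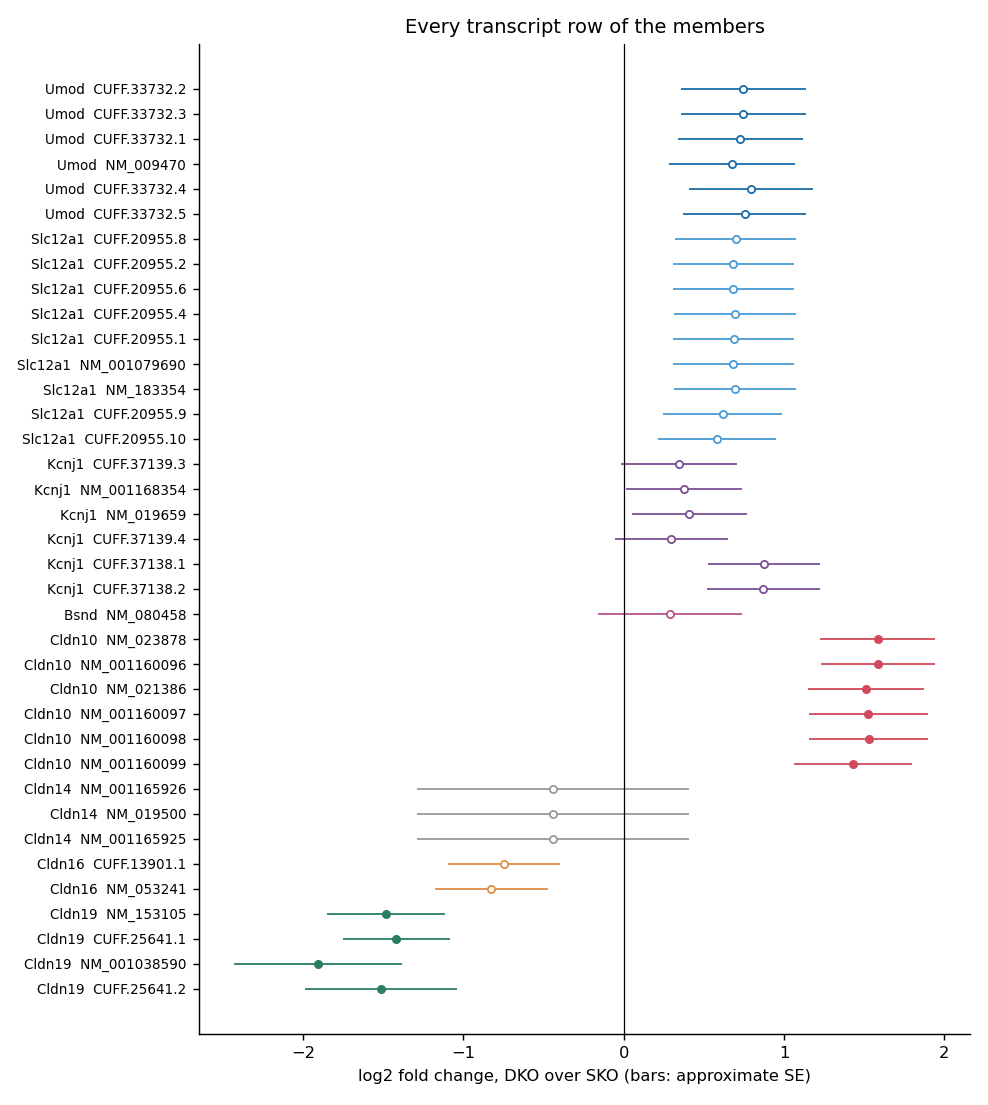
Log2 fold change, DKO against SKO, with approximate SE for each of the 37 transcript rows of the 8 genes. Filled points have an adjusted p under 0.05: the 6 rows of *Cldn10* lie between 1.43 and 1.59 and the 4 rows of *Cldn19* between -1.91 and -1.42, while no row of the other genes passed.

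*Cldn10* showed the largest rise among the members. Claudin-10 forms paracellular channels, and alternative first exons yield a cation-selective form made in the thick ascending limb and an anion-selective form made in the proximal tubule. The row with the highest mean, NM_023878 at 63.9 CPM, was 3.00-fold higher in kidneys labelled DKO (approximate 95% interval 1.84 to 4.88, adjusted p = 0.000764 by edgeR's likelihood ratio test). That row was chosen by its mean and not as the form of the thick ascending limb. It is paired with the upstream of 2 distant groups of starts, and which start yields which form was not determined here. A log2 fold change above that of *Cldn10* was found for 248 of the 13001 named genes of that abundance class, at least 1 CPM. All 6 rows of the gene passed adjustment, with adjusted p-values from 0.000764 to 0.00385. Among all transcript rows, 5.49% passed on the higher side and 3.36% on the lower side. Rows of a gene share reads, so these 6 calls are not independent.

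The 6 *Cldn10* rows come from far-apart starts on the forward strand of chromosome 14 of GRCm38, the assembly also called mm10. GENCODE pairs 4 of them with transcripts that start at 118787908 or 118787918, and 2 (NM_021386 and NM_001160099) with a transcript that starts at 118854732, some 66.8 kb downstream. The rows of the upstream starts had log2 fold changes of 1.53 to 1.59 and those of the downstream start 1.43 to 1.51. Means were 54.2 to 63.9 CPM for the former and 52.6 to 62.3 CPM for the latter. Levels this close in transcripts that share their later exons do not show which first exon was used, and the table cannot assign the rise to 1 of the forms. RefSeq places the starts differently, at 118787871, which is 37 bases before the nearest GENCODE start, and at 118854950, which is 218 bases after it. The sequences from 100 bases before to 50 bases after these RefSeq starts are given because they are the 2 promoters between which these rows cannot choose. The downstream one lies wholly past the GENCODE start. They are in lower case throughout, since neither held a motif searched below.
*Cldn10* upstream RefSeq start, chr14:118787771-118787920, plus strand: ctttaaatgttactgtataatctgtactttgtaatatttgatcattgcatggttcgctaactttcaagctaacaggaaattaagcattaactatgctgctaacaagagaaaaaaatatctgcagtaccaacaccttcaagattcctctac
*Cldn10* downstream RefSeq start, chr14:118854850-118854999, plus strand: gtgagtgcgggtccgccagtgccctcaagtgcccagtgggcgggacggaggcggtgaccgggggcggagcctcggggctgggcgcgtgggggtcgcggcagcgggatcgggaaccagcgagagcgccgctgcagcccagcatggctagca

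In windows of 250 bases before to 50 after a RefSeq start, 2 motifs were searched on both strands. The letters TATAAA were present in 13.6% of all 32851 promoters, and AAGGTCA, the core site of estrogen-related receptors, in 4.72%. Neither was in any of the 11 windows listed for 7 members. No match says only that these letters are not in the window.

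*Cldn19* showed the opposite change. Claudin-19 pairs with claudin-16 in the tight junction of the thick ascending limb, and loss of either causes renal wasting of magnesium and calcium. The row with the highest mean, NM_153105 at 48.7 CPM, was 2.80-fold lower in kidneys labelled DKO (approximate 95% interval 1.70 to 4.62, adjusted p = 0.00245 by edgeR's likelihood ratio test). In the same class, 322 genes had a value below that of *Cldn19*. All 4 rows passed adjustment. The short RefSeq transcript NM_001038590, of 924 bases in GENCODE and a mean of 13.4 CPM, had the lowest log2 fold change, -1.91 ± 0.52. That of NM_153105, of 4168 bases, was -1.49 ± 0.37. Rows of a gene share reads, so these errors are not independent, and a difference between the transcripts was not tested. RefSeq lists 2 *Cldn19* starts on the forward strand of chromosome 4, at 119255441 and 119255469, whose windows overlap. The window of the second is given, in the same span as for *Cldn10*, because it holds 119255509, the GENCODE start of NM_153105. Neither motif was found in it.
*Cldn19* second RefSeq start, chr4:119255369-119255518, plus strand: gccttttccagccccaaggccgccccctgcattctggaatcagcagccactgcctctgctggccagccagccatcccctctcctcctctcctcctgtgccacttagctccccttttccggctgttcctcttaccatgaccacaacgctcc

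*Cldn16*, the partner of *Cldn19*, had lower values but did not pass adjustment. Its 2 rows had means of 7.98 and 7.11 CPM and log2 fold changes of -0.75 and -0.83. Their adjusted p-values were 0.177 and 0.128, with unadjusted p-values of 0.0322 and 0.0191. The main row was 1.68-fold lower in kidneys labelled DKO (approximate 95% interval 1.05 to 2.70). At an unadjusted p under 0.05, the threshold of the study's methods, 3 members passed with 1 row per gene. These were *Cldn10* on the higher side, and *Cldn16* and *Cldn19* on the lower side. Some rows of *Umod* and *Kcnj1* with lower means also lay under that threshold, on the higher side. Of all named genes, 8.63% passed that threshold on the higher side and 9.29% on the lower side.

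*Cldn14* encodes a claudin that closes the channel formed by claudin-16 and claudin-19 and is induced through the calcium-sensing receptor. It was hardly detected, with a mean of 0.108 CPM in each of its 3 rows. Its log2 fold change of -0.44 had an approximate SE of 0.85 and an adjusted p of 0.873. Its approximate 95% interval, from 4.30-fold lower to 2.34-fold higher, leaves even a large difference undetectable. *Casr*, the calcium-sensing receptor itself, had a log2 fold change of 0.66 ± 0.31 (adjusted p = 0.181).

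**Figure D3:**
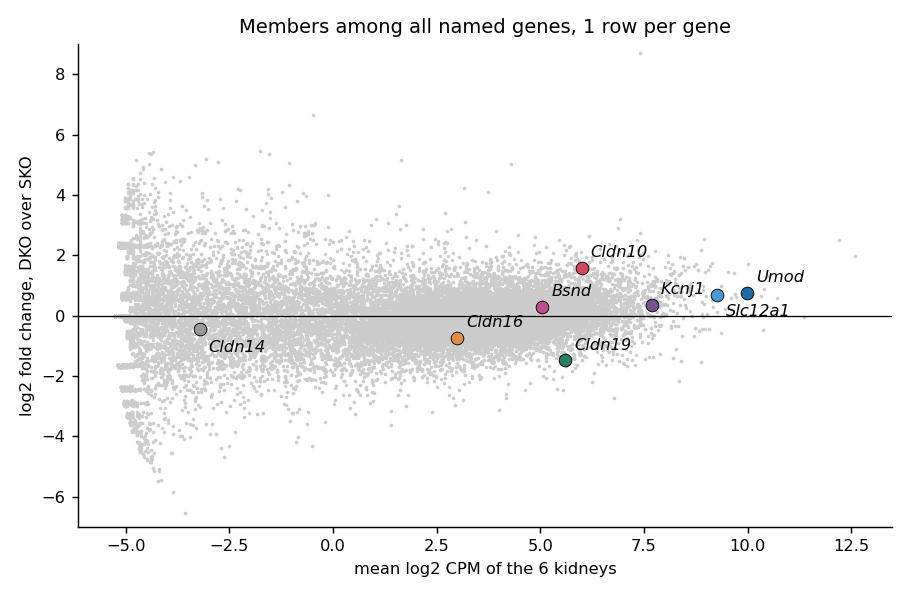
Log2 fold change, DKO against SKO, against the mean log2 CPM of the 6 kidneys, 1 point per named gene, with the 8 members in colour. Of the 13001 named genes of at least 1 CPM, 248 had values above *Cldn10*, at 1.58, and 322 had values below *Cldn19*, at -1.49. *Cldn14* lies among genes with almost no reads.

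The fold change of 1 member relative to another does not depend on how the libraries were scaled. Of the 28 pairs of members, 19 differed by more than their combined approximate SE and 12 by more than 1.96 times that SE. These SEs treat the genes as independent, although all come from the same kidneys. *Cldn10* and *Cldn19* differed most, by 3.07 on the log2 scale (combined approximate SE 0.51). The ratio of *Cldn10* to *Cldn19* was thus 8.40-fold higher in kidneys labelled DKO, with an approximate 95% interval from 4.18 to 16.9. The ratio of *Slc12a1* to *Cldn19* was 4.54-fold higher (2.21 to 9.32) and that of *Umod* to *Cldn19* 4.70-fold higher (2.27 to 9.73). Relative to *Cldn16*, *Slc12a1* was 2.72-fold higher (1.35 to 5.49). *Cldn10* exceeded *Slc12a1* by 0.89 (combined approximate SE 0.52) and *Umod* by 0.84 (0.53), differences whose approximate 95% intervals include 0. In the order of the fold changes, 2 of the 7 neighbouring pairs differed by more than their combined approximate SE: *Cldn10* and *Umod*, and *Cldn16* and *Cldn19*. From *Umod* through *Slc12a1*, *Kcnj1*, *Bsnd* and *Cldn14* to *Cldn16*, no neighbours differed beyond it. The ends of that run, *Umod* and *Cldn16*, differed by 1.49 (combined approximate SE 0.52).

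Since the groups differ in miR-17∼92, the 3′ ends of the members were searched for matches to the seeds (bases 2 to 8) of the 6 main miRNAs of the cluster. The mature sequences, from RefSeq on GRCm38.p6, fall into 4 seed groups, with the seed in capitals.
miR-17-5p: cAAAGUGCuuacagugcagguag
miR-20a-5p: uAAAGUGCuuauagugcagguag
miR-18a-5p: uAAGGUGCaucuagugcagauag
miR-19a-3p: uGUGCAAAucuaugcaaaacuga
miR-19b-3p: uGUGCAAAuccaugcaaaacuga
miR-92a-3p: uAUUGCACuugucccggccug

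The 3′-UTRs of all 15 GENCODE transcripts paired with rows of the 8 members were searched. None held a match to the seed of miR-17 and miR-20a, or to that of miR-19. With 1 transcript per gene, such matches were present in 13.9% and 12.1% of the 11844 genes with at least 1 CPM and a 3′-UTR. The median 3′-UTR of those genes has 1029 bases. The 3′-UTR of *Cldn10* has 209 or 210 bases in the transcripts of the upstream starts and 1174 in that of the downstream start. That of *Cldn19* has 3468 bases for NM_153105 and 90 for NM_001038590. *Cldn14*, at 205 to 206 bases, and *Cldn16*, at 114, have short ones. *Kcnj1* was the only member with a match, 1 to the seed of miR-18a, found in 8.60% of genes, and 1 to that of miR-92a, found in 7.08%. Both lie on the forward strand of chromosome 9, in both of its transcripts searched, and are shown with 8 bases on each side, the match in capitals.
*Kcnj1*, miR-18a match, chr9:32398040-32398062: cagtgactGCACCTTtctcaacc
*Kcnj1*, miR-92a match, chr9:32398147-32398169: ttccggtgGTGCAATcaatggag

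The *Kcnj1* rows paired with these transcripts, NM_001168354 and NM_019659, had log2 fold changes of 0.38 ± 0.36 and 0.41 ± 0.36. *Cldn10*, with none of the 4 matches in any of its 3′-UTRs, had one of 1.58. A missing match says only that the letters are not in these annotated 3′-UTRs.

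Genes that work with the members were followed in a list of 35 partner genes, all with at least 1 CPM. Of these, 6 were higher in kidneys labelled DKO at an adjusted p under 0.05 by edgeR's likelihood ratio test, and 0 were lower, with 9 and 2 at an unadjusted p under 0.05. With the F reference, 0 passed adjustment, as did 0 of all rows. The background among genes of this abundance is the 5.44% and 5.02% given above for adjusted calls, and 11.3% and 12.4% for unadjusted ones. The median log2 fold change of the 35 was 0.43. The list was written with earlier results of these data known, so its counts beside the background are a description and not a test.

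Among 11 partners in transport, 1 passed. *Kcnj16*, a basolateral potassium channel subunit, had a log2 fold change of 1.20 ± 0.41, or 2.30-fold (adjusted p = 0.0397). Its usual partner *Kcnj10* had a log2 fold change of 0.28 (adjusted p = 0.662). The sodium pump subunits *Atp1b1* and *Fxyd2* had values of 0.64 and 0.996 on the log2 scale and did not pass (adjusted p = 0.356 and 0.185). The lowest value was that of the anion exchanger *Slc4a2*, -1.07 (adjusted p = 0.133), and the sodium-proton exchanger *Slc9a4* followed at -0.97 (adjusted p = 0.0580).

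Among 12 regulators, 2 passed, both on the higher side. *Ptger3*, a prostaglandin E2 receptor of the thick ascending limb, was higher by 1.75 ± 0.32 on the log2 scale, or 3.36-fold (adjusted p = 1.9e-05). *Wnk1*, a kinase upstream of the kinases that switch on NKCC2, was higher by 1.15 ± 0.33, or 2.22-fold (adjusted p = 0.0109). Those kinases themselves, *Stk39* (SPAK) and *Oxsr1* (OSR1), had log2 fold changes of -0.26 and -0.09. The vasopressin receptor *Avpr2* had the lowest value of this list, -0.80 (adjusted p = 0.269). None of the 6 transcription factors passed, and 0 had an unadjusted p under 0.05, with the highest log2 fold change at 0.63 for *Esrrb* (unadjusted p = 0.0884).

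Of 6 other genes enriched in the segment, 3 were higher. *Egf*, the precursor of the urinary growth factor, made in the thick ascending limb and distal convoluted tubule, was higher by 2.53 ± 0.41 on the log2 scale, or 5.76-fold (adjusted p = 5.8e-07). *Tmem207* was 4.79-fold higher (adjusted p = 1.2e-05) and *Wfdc15b* 2.65-fold higher (adjusted p = 0.00480). *Ppp1r1a*, *Foxq1* and *Enox1* had log2 fold changes of 0.68, -0.08 and -0.25 and did not pass. *Egf* and *Tmem207* thus had larger fold changes than any of the 8 members, at 2.53 and 2.26 on the log2 scale.

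**Figure D4:**
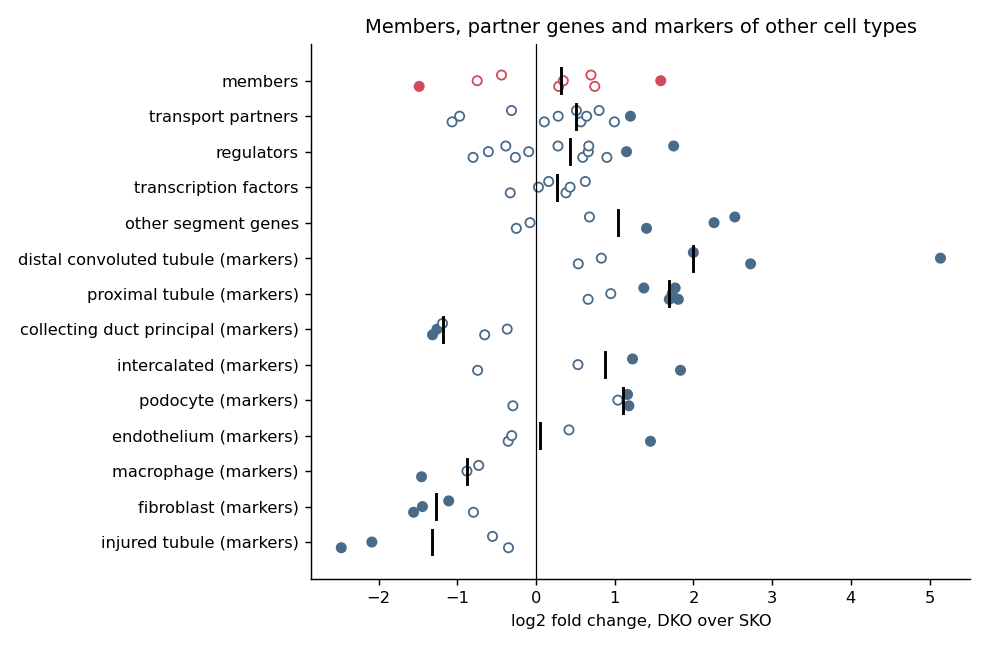
Log2 fold change, DKO against SKO, of each gene, 1 point per gene, for the members (red), the 4 lists of partner genes and the markers of other kidney cell types. Filled points have an adjusted p under 0.05 and bars mark the median, which was 0.32 for the members, 1.69 for proximal tubule and -1.19 for principal cell markers.

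Markers of other cell types moved between the groups as well, and their part in the members' values was not tested. All 7 proximal tubule markers had positive values, 5 of them past adjustment, from 0.66 for *Aqp1* to 1.81 for *Slc22a8*, with a median log2 fold change of 1.69. *Cldn10*, at 1.58, is also made by the proximal tubule, and the part of that segment in its value was not tested. All 5 distal convoluted tubule markers were above 0, 3 past adjustment, with a median of 1.999. The 5 markers of collecting duct principal cells were all below 0, 2 past adjustment, with a median of -1.19, and *Kcnj1* is expressed there too. Of the 4 intercalated cell markers, a cell type that also makes *Bsnd*, 3 were above 0, 2 of them past adjustment, and *Foxi1* was at -0.74 (adjusted p = 0.173). Markers of injured tubules, fibroblasts and macrophages were below 0 in 4 of 4, 4 of 4 and 3 of 3 genes, with 2, 3 and 1 past adjustment. Among the markers of injured tubules, *Lcn2* had the lowest value, -2.48 ± 0.48 (adjusted p = 4.4e-05). Of the 4 podocyte markers, 3 were above 0, 2 of them past adjustment, with a median of 1.10. The 4 endothelial markers split, 2 above and 2 below 0, with 1 past adjustment on the higher side and a median of 0.05. Of all named genes of at least 1 CPM, 5.44% passed adjustment on the higher side and 5.02% on the lower side. The 5 markers of the thick ascending limb fixed for this check, of which 4 are members, ranged from -0.75 for *Cldn16* to 2.53 for *Egf*.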

How the data were processed

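Total RNA of 6 kidneys, 3 per group, was sequenced as 51 bp single-end reads from stranded libraries. The authors trimmed the reads, mapped them with TopHat2 2.0.12 to mm10 and dropped alignments with a mapping quality below 10. The submitters' processing notes also list Cufflinks, featureCounts of Subread 1.4.6 and edgeR 3.2.4, without roles. The authors deposited log2 values (the log2 fold change, DKO against SKO, and the log2 of the mean CPM), a score (the likelihood ratio statistic of edgeR's glmLRT), its p-value and an adjusted p-value per transcript. The deposited p-values equalled the tail of a chi-square (1 degree of freedom) and the deposited adjusted ones the Benjamini-Hochberg values over all rows, within rounding error. These columns are the authors' own comparison, and the table gives nothing else. No column holds a value per kidney (0 found), so no count model, interval from reads or paired fit was possible, and depth per kidney is unknown.

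The approximate SE and 95% intervals (1.96 SEs) derive from the deposited fold change and statistic. The p-values set each difference against the variation between kidneys that the authors' fit estimated, which is not given. Members, partner lists, markers and tests were chosen with earlier results of these data known. Named genes are all members, every partner gene past adjustment, the ends of each list (some are not reported here), and *Mir17hg* and *Pkd1*. Further partner genes, *Xist* and markers were named after their values were seen. Of 4 macrophage markers, 3 were found by symbol. GENCODE M21 (GRCm38, the assembly of mm10) supplied transcripts and 3′-UTRs, and RefSeq (GRCm38.p6) promoters and miRNAs. Computation was in Python (3.11.15) with scipy (1.17.1), pandas (2.3.3) and numpy (2.4.6), and scripts were tested on simulated data.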

Additional observations from a re-analysis of the deposited data

How the results depend on the processing

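Rows of each gene chosen otherwise (the RefSeq row with the highest mean, or the row nearest to 0), adjustment repeated over 1 row per gene and a minimum of 1 CPM each left 2 members past adjustment, *Cldn10* and *Cldn19*. An F reference was also put in place of the chi-square one (1 and 4 degrees of freedom, as 6 kidneys leave). Under it, 0 members, 0 member rows and 0 partner genes passed adjustment, as did 0 of all rows, beside 5209 at an unadjusted p under 0.05. With no row past adjustment, this setting cannot tell the calls of members or partners from any others. Under that reference *Cldn10* and *Cldn19* had unadjusted p-values of 0.0115 and 0.0157. That reference, unadjusted, was added after seeing the data and gave 2 members and 6 partner genes. At the deposited unadjusted p, 11 partner genes passed instead of 6, 9 higher and 2 lower. With the row nearest to 0, 5 partner genes passed, without *Kcnj16*. The median over the members ranged from 0.33 to 0.41 over its 4 alternatives, beside 0.32. All 16 values of single members under a mean over rows or under centring stayed within 1 approximate SE. Centring moved every member alike by 0.05, less than any of their SEs, and *Bsnd* has only 1 row. Those values could therefore not have left that range. Leaving out each kidney in turn, another normalization and another count test could not be run, since each needs values per kidney. No paired analysis was possible because the table holds no value per kidney.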

Other observations

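Claudins outside the thick ascending limb also differed in both directions, as values beside those of the members. The table lists 21 further claudin genes, chosen by symbol after the members' values were seen, of which 12 had at least 1 CPM. Of those 12, 2 were higher and 2 lower in kidneys labelled DKO at an adjusted p under 0.05 by edgeR's likelihood ratio test. Of all named genes of at least 1 CPM, 5.44% passed on the higher side and 5.02% on the lower side. The median log2 fold change of the 12 claudins was -0.31. *Cldn2*, the cation claudin of the proximal tubule, was higher by 1.12 ± 0.33 (approximate SE) on the log2 scale, or 2.17-fold (adjusted p = 0.0138). *Cldn11* was higher by 2.29 ± 0.57, or 4.90-fold (adjusted p = 0.00235). *Cldn4*, a claudin of the collecting duct, had a log2 fold change of -2.47 ± 0.47 (adjusted p = 3.5e-05). *Cldn6*, a claudin of immature epithelia, had one of -3.17 ± 0.42 (adjusted p = 2.9e-10). *Cldn8*, a claudin of the distal nephron, had one of -0.36 ± 0.32 and did not pass.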
